A study of Mus musculus with 8 samples.

Results

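The small heat shock proteins described here are 6 genes, Hspb6, Hspb7, Hspb8, Hspb1, Cryab and Hspb2, taken by the gene symbol of the array annotation with every probe set of each gene. They had 11 probe sets among the 28000 in the table, 3 for Hspb7, 2 each for Hspb8, Hspb1 and Cryab, and 1 each for Hspb6 and Hspb2. Uterine RNA came from 4 pregnant Cox-1 KO and 4 pregnant wild-type females at gestational day 18.0, and RNA of a single mouse was hybridized to each Affymetrix GeneChip. Cox-1 KO females lacked cyclooxygenase-1 throughout the body and had a mixed C57BL/6 and Sv129 background by the labels (129P2 in the methods), whereas wild-type females were C57BL/6, so that genotype and strain cannot be told apart. The labels gave an age of 6 to 16 weeks for both genotypes. Uterus was taken after fetuses, fetal membranes and placentas had been removed, and with such bulk tissue fewer cells of a type and less RNA per cell cannot be told apart. The family was picked from results of these arrays, with the difference in signal between the genotypes already known, and the study itself lists a probe set of Hspb6 and a probe set of Hspb7 among its changed genes. Differences of the members are therefore given as a description, and counts of members past a threshold stand only beside the share of all probe sets past it.

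Small heat shock proteins are chaperones that work without ATP. They share an alpha-crystallin domain, assemble into oligomers, and hold misfolded proteins until Hsp70 chaperones can refold or discard them. Muscle is rich in several of them, where they bind actin, desmin and filamin. Hspb6 (Hsp20) is the member best known for relaxation, because cyclic AMP- and cyclic GMP-dependent kinases phosphorylate it while smooth muscle relaxes. In rat myometrium, Hspb1 is phosphorylated late in pregnancy.

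The table holds the MAS5 signal of each probe set, a brightness on a linear scale that is not comparable between probe sets. Array medians lay between 731 and 757. The deleted gene, Ptgs1, had signals of 88, 122, 76 and 136 on the Cox-1 KO arrays, against 7048, 10610, 10756 and 10508 on the wild-type arrays. Smooth muscle markers were bright in both genotypes, Myh11 with a mean of 36928 in Cox-1 KO and 38189 in wild-type uterus. Transcripts of yolk sac and fetal liver differed between arrays, since Apoa1 had 73950, 65189 and 56615 on Cox-1 KO replicates 1, 3 and 4 and 55059 on wild-type replicate 4, but 631 on Cox-1 KO replicate 2 and 183 to 505 on the other wild-type arrays. Wild-type replicate 1 was the lowest wild-type array for 8 of the 11 member probe sets.

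Hspb6 and a probe set of Hspb7 were lower in Cox-1 KO uterus by more than 0.6 on the log2 scale, and the other 9 probe sets differed by -0.22 to 0.02. Differences are given as log2 signal, Cox-1 KO minus wild-type, with the standard error of the limma fit. All 11 probe sets passed the filter, which asked for signals of at least 100 on 4 or more arrays, and none passed an adjusted p of 0.05 over the 26444 probe sets tested, of which 3 did, or 0.0113%. At an unadjusted p under 0.05, 2 of the 11 were lower and none was higher, where 5.12% of all probe sets were lower and 3.69% were higher. The same 2, Hspb6 and Hspb7 (1421289_at), passed the thresholds of the methods' t-test, an unadjusted p of 0.05 and a ratio of means of 1.5, which 0.446% of all probe sets passed as lower and 0.416% as higher. All 4 Cox-1 KO arrays lay below all 4 wild-type arrays for 1 of the 11, that of Hspb6, where 2.91% of all probe sets did so and 1.5% had the opposite order. The median over the 6 genes, each on its brightest probe set, was -0.06, beside -0.03 over all probe sets tested. Nothing is read from these counts, because the same contrast had been seen when the family was picked.

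**Figure D1:**
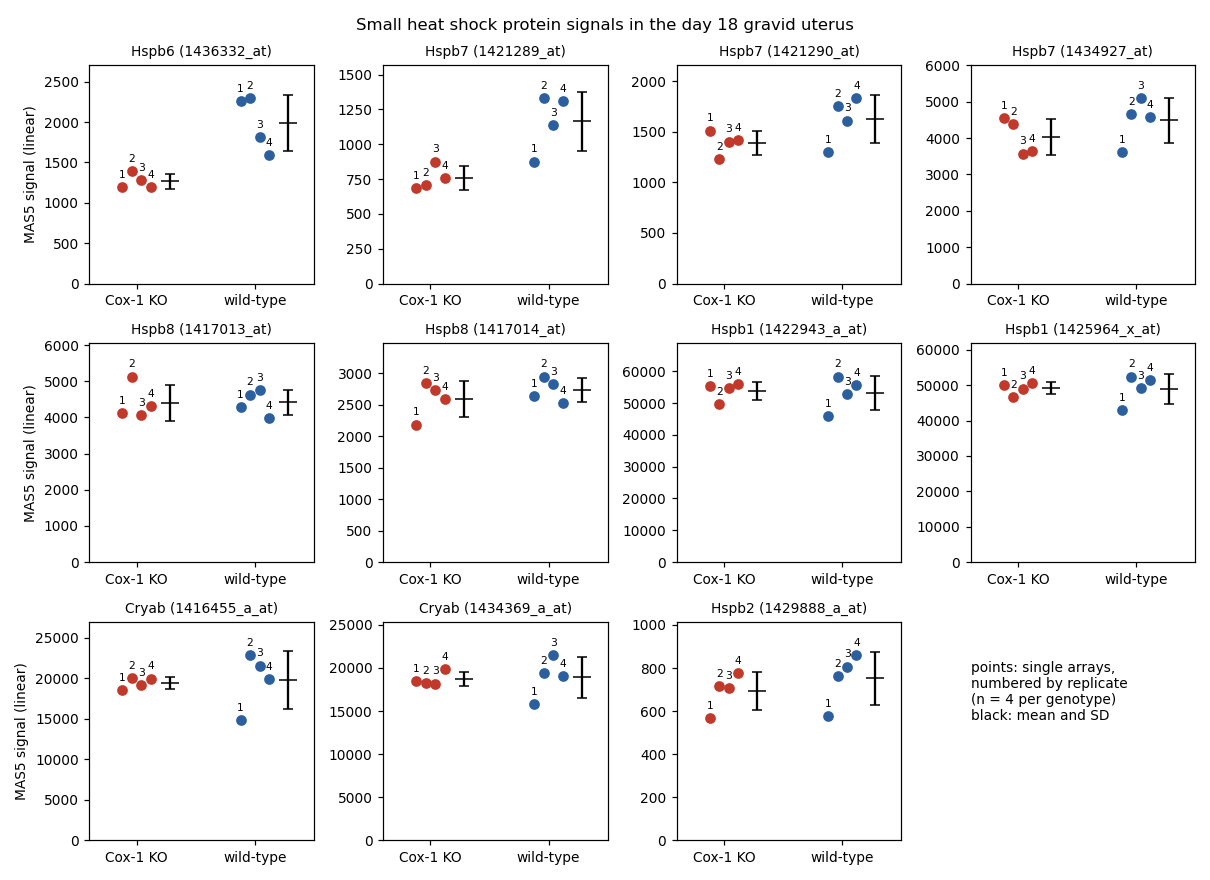
MAS5 signal (linear axis from 0) of each of the 11 probe sets on every array, with Cox-1 KO at the left and wild-type at the right of each panel. Points are single arrays numbered by replicate (n = 4 per genotype), and black marks are mean and SD. Hspb6 is the panel without overlap, at 1199 to 1392 in Cox-1 KO and 1587 to 2296 in wild-type uterus.

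Hspb6 had signals of 1199, 1392, 1286 and 1200 on Cox-1 KO replicates 1 to 4, against 2261, 2296, 1814 and 1587 on wild-type replicates 1 to 4. The Cox-1 KO arrays lay close together, the wild-type arrays were spread more widely, and the genotypes did not overlap. The mean was 1269 ± 91.4 in Cox-1 KO and 1989.5 ± 347 in wild-type uterus (SD, n = 4 each). This is a log2 difference of -0.63 (standard error 0.121), or 1.55-fold lower on that scale, and 1.02% of all probe sets tested had a more negative difference. Hspb6 lies on mouse chromosome 7 (GRCm38.p6, 30552535 to 30555443), where its end overlaps that of Lin37 in the annotation, and its single probe set could not be checked against another.

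The low Hspb6 arrays were also, for the most part, those with yolk sac and fetal liver transcripts. Of this list 13 of 17 genes were tested, all 13 were higher in Cox-1 KO uterus, and the mean log2 signal of the list was 8.73 to 14.66 on Cox-1 KO and 7.92 to 13.85 on wild-type arrays. No gene of the list was at 0 on any array, the lowest being Fgg at 9 on wild-type replicate 1. Among the arrays high in Apoa1, Hspb6 was 1199 to 1286 on 3 Cox-1 KO arrays and 1587 on 1 wild-type array. Among those low in Apoa1, it was 1392 on 1 Cox-1 KO array and 1814 to 2296 on 3 wild-type arrays. Because the genotypes did not overlap, any split of the arrays puts Cox-1 KO lower in each part. The order at both levels of Apoa1 is therefore no test of yolk sac content. Wild-type replicate 4, which is high in Apoa1, was the lowest wild-type array. With the list as a covariate the log2 difference was -0.45 (standard error 0.114). Without the arrays high in Apoa1, which leaves 1 Cox-1 KO array that is assumed to vary like the 3 wild-type arrays, it was -0.60 (standard error 0.167).

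**Figure D2:**
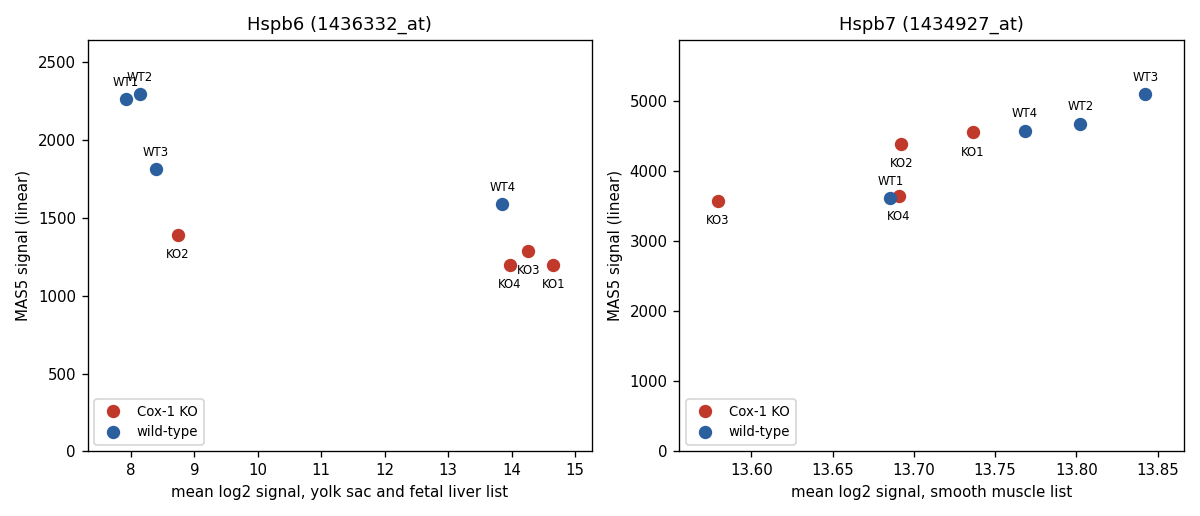
Left, Hspb6 signal (linear axis) against the mean log2 signal of the yolk sac and fetal liver list, and right, Hspb7 signal (1434927_at) against that of the smooth muscle list. Each point is an array (KO, Cox-1 KO, and WT, wild-type, with the replicate number). For Hspb6 the Cox-1 KO arrays are the lower ones over all arrays, and so at either level of the yolk sac list. Hspb7 follows the order of the smooth muscle list, from 3576 on Cox-1 KO replicate 3 to 5096 on wild-type replicate 3.

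Hspb7, the cardiovascular small heat shock protein of heart and skeletal muscle, which binds filamin C, had 3 probe sets that differed in size of change. On 1421289_at it had 684, 704, 876 and 760 in Cox-1 KO uterus, against 875, 1330, 1139 and 1311 in wild-type uterus. The genotypes touched at a single point, since Cox-1 KO replicate 3 was 1 unit above wild-type replicate 1. Means were 756 ± 86.2 in Cox-1 KO and 1164 ± 211 in wild-type uterus (SD, n = 4 each), a log2 difference of -0.61 (standard error 0.141), and 1.17% of all probe sets had a more negative one. The probe set 1421290_at, annotated to the same transcript accession, had 1511, 1231, 1403 and 1420 in Cox-1 KO uterus, against 1299, 1757, 1611 and 1831 in wild-type uterus. Wild-type replicate 1 was lower than 3 of the Cox-1 KO arrays there, and the log2 difference was -0.22 (standard error 0.114).

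The brightest Hspb7 probe set, 1434927_at, had 4549, 4381, 3576 and 3635 in Cox-1 KO uterus, against 3610, 4671, 5096 and 4572 in wild-type uterus. Again wild-type replicate 1 was the wild-type array within the Cox-1 KO range, and the log2 difference was -0.15 (standard error 0.115). The ratio of 1421289_at to 1434927_at on the same array was 0.150 to 0.245 in Cox-1 KO and 0.224 to 0.287 in wild-type uterus, so these probe sets of a gene did not move alike. Without wild-type replicate 1, all 3 Hspb7 probe sets were free of overlap, and the log2 difference on 1421289_at was -0.74 (standard error 0.115). That array was in the overlap on each of them and was singled out after the values were seen. With any other array left out, only 1421289_at was free of overlap, and only without Cox-1 KO replicate 3. The share of all probe sets without overlap was not computed for these settings. Among the arrays high in Apoa1, 1421289_at was 684 to 876 on 3 Cox-1 KO arrays and 1311 on 1 wild-type array, and among those low in Apoa1 it was 704 on 1 Cox-1 KO array and 875 to 1330 on 3 wild-type arrays. The Cox-1 KO arrays were also lower at both levels on 1421290_at, but 1434927_at overlapped where Apoa1 was low, with 4381 on the Cox-1 KO array and 3610 to 5096 on the wild-type arrays. Without the arrays high in Apoa1 the log2 difference of 1434927_at was -0.01 (standard error 0.177). Hspb7 lies on chromosome 4, from 141420779 to 141425310.

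**Figure D3:**
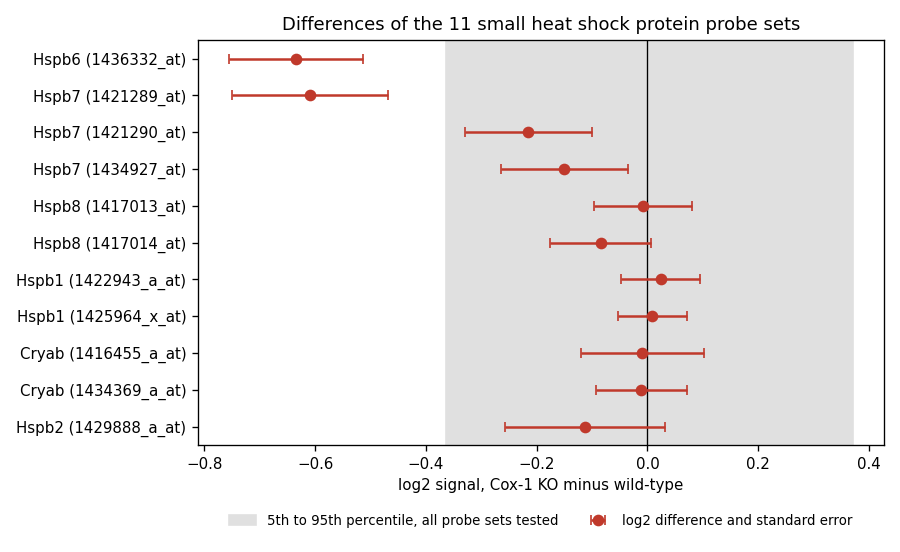
Log2 difference (Cox-1 KO minus wild-type, 4 arrays each) of the 11 probe sets with its standard error, with the 5th to 95th percentile of all 26444 probe sets tested as a grey band (-0.36 to 0.37). Hspb6 and Hspb7 (1421289_at) lie below the band, and the other 9 probe sets lie within it.

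Hspb8 (Hsp22), which delivers damaged proteins to autophagy together with the cochaperone Bag3, overlapped between the genotypes on both probe sets. On 1417013_at it had 4112, 5128, 4056 and 4312 in Cox-1 KO uterus, against 4284, 4633, 4767 and 3986 in wild-type uterus, with the highest value on Cox-1 KO replicate 2 and the lowest on wild-type replicate 4. The log2 difference was -0.01 (standard error 0.0877). At both levels of Apoa1 the Cox-1 KO arrays lay, on this probe set, above the wild-type ones, with 4056 to 4312 against 3986 where Apoa1 was high and 5128 against 4284 to 4767 where it was low. Each level holds only a single array of either Cox-1 KO or wild-type. How many of all probe sets keep such an order was not counted, here or for Hspb7. With the yolk sac list as a covariate the log2 difference was 0.14 (standard error 0.0762). On 1417014_at it had 2187 to 2848 in Cox-1 KO and 2530 to 2949 in wild-type uterus, with a log2 difference of -0.08 (standard error 0.0913). This probe set overlapped at both levels of Apoa1, with 2187 to 2731 against 2530 where Apoa1 was high and 2848 against 2638 to 2949 where it was low, and its log2 difference was 0.02 with the yolk sac list as a covariate.

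Hspb1 (Hsp25 in the mouse), a chaperone of actin filaments that the kinase Mapkapk2 phosphorylates, had Cox-1 KO signals inside the wild-type range. On 1422943_a_at it had 55221, 49660, 54686 and 55989 in Cox-1 KO uterus, against 45819, 58303, 52807 and 55725 in wild-type uterus. The log2 difference was 0.02 (standard error 0.0715). Its other probe set, 1425964_x_at, of a type that may share probes with other transcripts, had 46740 to 50584 in Cox-1 KO and 42901 to 52429 in wild-type uterus, with a log2 difference of 0.01 (standard error 0.062).

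Cryab (alpha B-crystallin), which guards desmin filaments and is also a lens protein, and Hspb2, a muscle protein that binds myotonic dystrophy protein kinase, are neighbours on chromosome 9. The annotated span of Hspb2 (50751072 to 50752354) lies within that of Cryab (50745951 to 50756636), and whether probes of the pair share transcripts was not tested. On 1416455_a_at Cryab had 18585, 19999, 19137 and 19977 in Cox-1 KO uterus, against 14836, 22875, 21575 and 19901 in wild-type uterus. The lowest and the highest of the 8 arrays were both wild-type. The log2 difference was -0.01 on this probe set (standard error 0.111) and -0.01 on 1434369_a_at (standard error 0.0823), where the signal was 18181 to 19913 in Cox-1 KO and 15769 to 21488 in wild-type uterus. Hspb2 had 567, 718, 707 and 778 in Cox-1 KO uterus, against 577, 764, 807 and 860 in wild-type uterus. Replicate 1 of each genotype was the low array for Hspb2, and the log2 difference was -0.11 (standard error 0.145). It was -0.02 when Cox-1 KO replicate 1 was left out and -0.23 when wild-type replicate 1 was, the extremes over the 8 arrays left out in turn.

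Windows around annotated transcript starts, 250 bases before to 50 bases after, are shown for 4 members to set their heat shock motifs beside the differences. They are RefSeq sequence of GRCm38.p6, read 5′ to 3′ on the strand of the gene, and 4 of the 6 genes had a window. Capitals mark GAANNTTC or TTCNNGAA, the inverted repeats of a heat shock element, and TATAAA, all searched on both strands.
Hspb6: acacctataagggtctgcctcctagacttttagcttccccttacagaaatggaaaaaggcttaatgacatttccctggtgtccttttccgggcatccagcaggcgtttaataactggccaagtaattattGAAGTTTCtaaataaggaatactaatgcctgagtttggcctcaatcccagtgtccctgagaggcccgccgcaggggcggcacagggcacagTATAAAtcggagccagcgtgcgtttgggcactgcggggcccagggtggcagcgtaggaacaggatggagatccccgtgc
Hspb7: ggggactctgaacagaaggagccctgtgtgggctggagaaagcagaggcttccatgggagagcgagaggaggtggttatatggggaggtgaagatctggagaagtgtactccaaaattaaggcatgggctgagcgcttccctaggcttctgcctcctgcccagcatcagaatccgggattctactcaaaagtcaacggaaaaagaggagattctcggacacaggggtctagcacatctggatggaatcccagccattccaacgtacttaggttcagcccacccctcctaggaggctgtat
Hspb8: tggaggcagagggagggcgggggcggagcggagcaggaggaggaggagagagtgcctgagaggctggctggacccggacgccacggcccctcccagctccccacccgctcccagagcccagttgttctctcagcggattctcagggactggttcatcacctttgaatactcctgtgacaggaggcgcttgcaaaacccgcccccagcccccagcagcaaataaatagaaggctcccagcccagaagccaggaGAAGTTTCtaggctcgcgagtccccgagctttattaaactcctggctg
Hspb1: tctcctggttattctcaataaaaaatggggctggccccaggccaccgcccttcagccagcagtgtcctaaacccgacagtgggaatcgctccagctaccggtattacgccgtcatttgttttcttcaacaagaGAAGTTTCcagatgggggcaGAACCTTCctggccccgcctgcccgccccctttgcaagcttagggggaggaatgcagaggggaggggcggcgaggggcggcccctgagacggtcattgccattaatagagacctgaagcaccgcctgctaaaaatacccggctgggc
The windows are chr7:30553051-30553350 for Hspb6 (plus strand), chr4:141420529-141420828 for Hspb7 (plus strand), chr5:116422815-116423114 for Hspb8 (minus strand) and chr5:135887669-135887968 for Hspb1 (plus strand).

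The same 8 bases, GAAGTTTC, a match to GAANNTTC, stood in the windows of Hspb6, Hspb8 and Hspb1. They began at base 131 of the Hspb6 window, base 253 of the Hspb8 window and base 134 of the Hspb1 window. Hspb1 had a further match, GAACCTTC, from base 154. The Hspb7 window had no match to either inverted repeat. Of 32851 windows of this length, 7.86% held GAANNTTC and 8.52% held TTCNNGAA. TATAAA stood from base 222 of the Hspb6 window, and 13.6% of all windows held it. A second Hspb6 window, chr7:30552290-30552589, had no match to these but held 4 CCAAT motifs, a motif found in 37.4% of all windows. No member window held the CArG box, the site of serum response factor in muscle genes, which 1.63% of all windows held. The motif thus stood both in Hspb6, which was lower, and in Hspb8 and Hspb1, which overlapped, and these matches are a description of sequence.

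Over the 8 arrays, 17 relations were computed, between pairs of genes other than Hspb6 on their brightest probe sets and between members and the mean log2 signal of the smooth muscle list. Arrays share their scaling and the make-up of the tissue, so these are relations between arrays. Hspb6 was left out because its arrays fall apart by genotype. The permutations exchange arrays between genotypes, so a genotype shift shared by both measures enters their p. Hspb7 (1434927_at) followed the smooth muscle list with a Pearson r of 0.87 (exact permutation p = 0.0036, adjusted p = 0.0611) and a Spearman rho of 1.0 (exact permutation p = 5e-05, the smallest that 8 arrays allow, adjusted p = 0.00084, n = 8). Without the 2 arrays farthest from the median of Hspb7, r was 0.82, and with the genotype means taken off it was 0.87. With the smooth muscle list as a covariate the log2 difference of this probe set was 0.11 instead of -0.15. For 1421289_at r was 0.58 and rho 0.45 (exact permutation p = 0.13 and 0.267, adjusted p = 0.369 and 0.485), and r was 0.09 with the genotype means taken off. For 1421290_at r was 0.66 and rho 0.74 (exact permutation p = 0.0705 and 0.0458, adjusted p = 0.27 and 0.282), and r was 0.47 with the genotype means taken off.

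No relation between members passed the adjustment. The highest r were those of Cryab with its neighbour Hspb2 (r = 0.73, rho = 0.62, exact permutation p = 0.0289 and 0.115, adjusted p = 0.238 and 0.326) and with Hspb1 (r = 0.76, rho = 0.40, exact permutation p = 0.042 and 0.327, adjusted p = 0.238 and 0.485). Without the 2 arrays farthest from the median, wild-type replicate 1 among them, r was 0.23 with Hspb2 and 0.32 with Hspb1, so both values rest on those arrays. The other 12 relations had r of -0.27 to 0.62 and rho of -0.21 to 0.67, with adjusted p of at least 0.27 for r and 0.282 for rho (exact permutation tests).

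Partners of the small heat shock proteins were measured for all 13 listed genes, and none passed an adjusted p of 0.05 (limma), as 0.0113% of all probe sets did. At an unadjusted p under 0.05, 1 of the 13 was lower and 1 was higher, beside 5.12% and 3.69% of all probe sets, and the median log2 difference was -0.02. The lower gene was Synpo2, a scaffold of the Bag3 autophagy complex in muscle, with 13483 ± 1884 in Cox-1 KO and 15537 ± 973 in wild-type uterus (SD, n = 4 each; log2 difference -0.21). The higher gene was Mapkapk2, the kinase of Hspb1, with 2583 ± 311 in Cox-1 KO and 2234.5 ± 128 in wild-type uterus (log2 difference 0.20). Ywhaq and Ywhag, members of the 14-3-3 family that binds phosphorylated Hspb6, had log2 differences of -0.12 and 0.14. Bag3 had 3242, 3477, 2856 and 3205 in Cox-1 KO uterus, against 3405, 3088, 3095 and 2891 in wild-type uterus, and the wild-type range lay within the Cox-1 KO range.

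Genes of the general heat shock response had small differences and no call. Of 16 tested from 20 listed, 11 were lower and 5 higher, where 57.5% of all probe sets were lower, and none passed at an adjusted or an unadjusted p (limma). The median log2 difference was -0.06, beside -0.03 over all probe sets. The mean log2 signal of the list was 12.34 to 12.385 on Cox-1 KO and 12.40 to 12.44 on wild-type arrays, without overlap. This difference of list means was not tested. Ahsa1, an activator of Hsp90, had 4722 ± 292 in Cox-1 KO and 5189 ± 222 in wild-type uterus (SD, n = 4 each; log2 difference -0.14). Hspa1a, the inducible Hsp70, had 2897, 3091, 2652 and 2393 in Cox-1 KO uterus, against 3099, 2821, 3586 and 3200 in wild-type uterus. Its log2 difference was -0.20. The log2 differences of Hspa2, an Hsp70 family member, and Stip1, which links Hsp70 to Hsp90, were -0.21 and -0.13. Of 4 other small heat shock protein genes listed, Hspb3, Hspb9, Odf1 and Cryaa, none was named on the table.

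The pathway of cyclic nucleotide relaxation, in which Hspb6 acts, had 33 of 36 listed genes tested, with 24 lower and 9 higher, where 57.5% of all probe sets were lower, and none past an adjusted p of 0.05 (limma). At an unadjusted p under 0.05, 5 of the 33 were lower and none was higher, beside 5.12% and 3.69% of all probe sets, and the median log2 difference was -0.05. Among the 5 were 3 regulatory proteins of myosin phosphatase, the enzyme that relaxes smooth muscle. Ppp1r12b had 4102 in Cox-1 KO and 4747 in wild-type uterus (log2 difference -0.22), Ppp1r12a had 9308.5 in Cox-1 KO and 10418.5 in wild-type uterus (-0.16), and Ppp1r14a, an inhibitor of that phosphatase, had 4961 in Cox-1 KO and 5561.5 in wild-type uterus (-0.17). Ppp1r14a and Prkg1, the cyclic GMP-dependent kinase that phosphorylates Hspb6, were the 2 of 33 genes whose genotypes did not overlap, where 2.91% of all probe sets were lower without overlap, and the log2 difference of Prkg1 was -0.21. Ptger2, a prostaglandin E receptor that raises cyclic AMP, had 471, 506, 419 and 490 in Cox-1 KO uterus, against 533, 740, 682 and 491 in wild-type uterus (log2 difference -0.36).

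**Figure D4:**
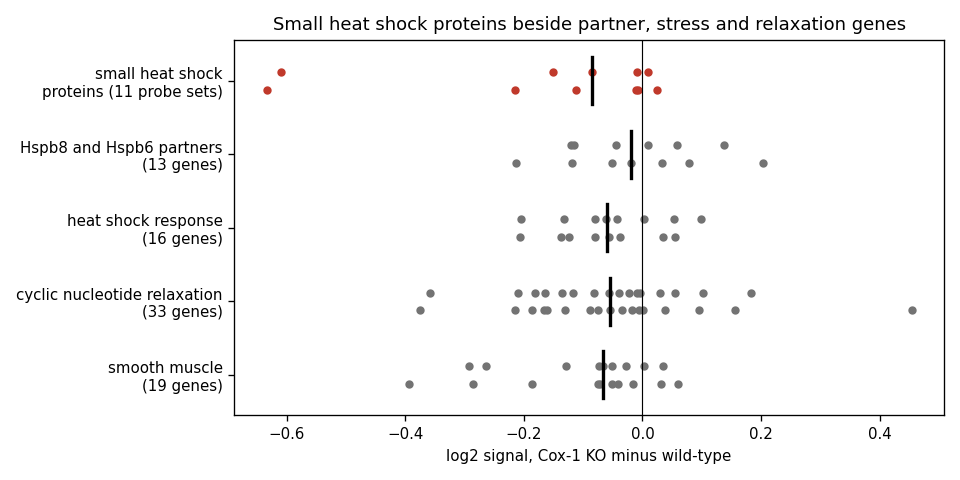
Log2 difference (Cox-1 KO minus wild-type) of the 11 member probe sets and of each tested gene of 4 lists, on the brightest probe set of the gene. Each point is a probe set and black bars are medians, -0.08 for the members and -0.02 to -0.07 for the lists. Hspb6 (-0.63) and Hspb7 on 1421289_at (-0.61) lie to the left of every gene of these lists. The other Hspb7 probe sets, 1421290_at (-0.22) and 1434927_at (-0.15, the brightest), lie among the genes of the lists.

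Of 20 smooth muscle genes 19 were tested, of which 15 were lower and 4 higher, where 57.5% of all probe sets were lower. They had a median log2 difference of -0.07, and none passed an adjusted p of 0.05 (limma), while 4 of the 19 were lower at an unadjusted p under 0.05, beside 5.12% of all probe sets. These were Pgm5 and Synm, which anchor filaments to the membrane, Smtn, a contractile protein, and Myocd, a coactivator of smooth muscle genes, with log2 differences of -0.29, -0.39, -0.13 and -0.29. The mean log2 signal of the list was 13.58 to 13.74 on Cox-1 KO and 13.69 to 13.84 on wild-type arrays, with wild-type replicate 1 the lowest of its genotype. With this list as a covariate, the log2 difference was -0.72 for Hspb6 (standard error 0.162) and -0.58 for Hspb7 on 1421289_at (standard error 0.195), a setting chosen after seeing the data.

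Striated muscle markers were read beside Hspb7 because heart and skeletal muscle are where it is best known. Of 17 skeletal muscle genes 7 were tested, with 4 lower, 3 higher and a median log2 difference of -0.15, and their mean log2 signal was 8.76 to 10.55 on Cox-1 KO and 9.08 to 9.31 on wild-type arrays. The high array was Cox-1 KO replicate 4, with 3246 for Mylpf, a fast myosin light chain, against 144 to 198 on the other Cox-1 KO arrays and 180 to 243 in wild-type uterus. Hspb7 on that array lay within the range of the other Cox-1 KO arrays, at 760 (1421289_at), 1420 (1421290_at) and 3635 (1434927_at). Tnni2, a fast troponin, had 1202, 1035, 985 and 2005 in Cox-1 KO uterus, against 2312, 2123, 1829 and 2134 in wild-type uterus. The study lists it as changed and, by in situ hybridization, placed it in the circular muscle layer of the myometrium. Northern blots of the study also had Tnni2 lower in Cox-1 KO uterus at day 18.0. The signal of Tnni2 is therefore not read as a measure of skeletal muscle. It is still among the 7 genes of that list, with a log2 difference of -0.74, and enters their median and mean signal. Of 12 cardiac genes 6 were tested, with 4 lower, 2 higher and a median of -0.17, and a mean log2 signal of 8.85 to 9.29 on Cox-1 KO and 8.78 to 9.28 on wild-type arrays. The epithelial list (11 of 11 higher, median 0.20) was also higher without a call (limma), where 57.5% of all probe sets were lower. So were the trophoblast and decidua list (4 of 5 higher, median 0.41) and the adipocyte list (4 of 4 higher, median 0.57). The epithelial list had a mean log2 signal of 13.05 to 13.585 on the arrays high in Apoa1 and 12.01 to 12.44 on the others. The gap was widest for Spink1 (6922 to 17559 against 62 to 103) and Foxa2 (255 to 717 against 76 to 116). Krt8 and Krt18 were higher on those arrays by far less. The other genes of the list overlapped, among them Epcam (10106 to 11904 against 10840 to 12492). The part of these lists in the member differences was not tested.

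The genes whose pattern over the 8 arrays was most like that of Hspb6 were Kmt5b, Txndc11, Nfyb, Sgsm1 and Serp1, with Pearson r of 0.962 to 0.978 on the log2 scale. Their own log2 differences were -0.13 to -0.49. The negative sign comes with the choice of these genes, because the Hspb6 arrays fall apart by genotype. With the genotype means taken off, the closest were Atf2, Msl1, Sirt2, Arfrp1 and Josd2 (r of 0.979 to 0.990), whose log2 differences were -0.06 to 0.14. No gene was in both sets. For Hspb7 (1434927_at) the closest were Arhgap29, Tns1, Axl, Snx18 and Rbm25 (r of 0.947 to 0.960), and with the genotype means taken off B3gat3, Wwc1, Zswim4, Pfkp and Zbtb4 (r of 0.974 to 0.984). These are the highest correlations among all annotated genes tested and are given as a description.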

How the data were processed

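Uterine RNA of 4 Cox-1 KO and 4 wild-type mice was measured on Affymetrix mouse GeneChips. The authors scaled every array to a common target in MAS5. The deposited table gives the resulting intensity, not log-transformed and rounded to integers, of 28000 probe sets, and the basis on which they were kept is not given in the sources used here. Groups and replicate numbers come from the sample titles. Genes were named from the platform annotation, in which 23579 probe sets carry 1 symbol, 653 several and 3768 none. Ptgs1 alone was named through the study's additional file.

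Signals under 1 (1 value) were set to 1 and taken to log2. The 60 array controls were left out, as were probe sets without a signal of 100 on at least 4 arrays, which stands in for present calls. With R 4.3.3 and limma 3.58.1, linear models with a trend on mean signal compared Cox-1 KO with wild-type over 26444 probe sets, with Benjamini-Hochberg adjustment. The methods' t-test, with Welch's correction, was run on log2 signal. The number of arrays limits the precision. Each array is a separate mouse by the methods. The fit was tested on simulated data. Named genes are all members, the up to 4 genes with the smallest p in each list, any past the threshold, and the 5 genes most like Hspb6 or Hspb7, and further genes were named after their values were seen. Members and lists were chosen with earlier results of these data known. Relations between arrays used exact permutation tests (Python 3.11.15). Protein sequences were not used here.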

Additional observations from a re-analysis of the deposited data

Results flagged for a closer look

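Of the 22 groups of 4 arrays, 11 probe sets in each genotype, 1 held an array far from the other 3 by Dixon's criterion, which marks about 1 in 20 groups by chance. Cryab on 1434369_a_at had a signal of 19913 on Cox-1 KO replicate 4, against 18181 to 18428 on the other Cox-1 KO arrays, which lie close together. The value is within the wild-type range of 15769 to 21488, and the other Cryab probe set had 19977 on that array, within 18585 to 19999.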

How the results depend on the processing

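The differences of Hspb6 and Hspb7 (1421289_at) were negative under all 21 alternatives, but several of these could not change them. A floor on low signals, a changed filter, no trend, a robust fit and the replicate block left them at -0.63 and -0.61. Leaving out arrays cannot turn the sign for Hspb6, because its genotypes did not overlap. The count of 21 is therefore no measure of how firm the sign is. Apart from the arrays left out, the differences lay at -0.72 to -0.45 for Hspb6 and at -0.72 to -0.58 for Hspb7. With each array left out in turn they were -0.74 to -0.56 and -0.74 to -0.54. No member probe set passed an adjusted p of 0.05 under any of these alternatives. The small differences of Cryab, Hspb1 and Hspb8 changed sign under 2 to 8 alternatives, and those of Hspb2 and Hspb7 (1434927_at) under 1 each.

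The count of member probe sets without overlap, 1 as reported, became 3 with a replicate block (the mean of each replicate number taken off), 4 with the yolk sac covariate and 4 without the arrays high in Apoa1, which leaves a single Cox-1 KO array. It was 1 to 4 with each array left out, where fewer arrays make separation easier. The 4 came without wild-type replicate 1 and a count of 2 without Cox-1 KO replicate 3. The replicate block makes separation easier too, since it asks only that the 4 same-numbered differences share a sign. The share of all probe sets without overlap was not computed under these settings, so nothing is read from the changes in count. The 2 that passed the methods' thresholds became 1 with the yolk sac covariate and 0 to 2 with each array left out, where the 0 came with wild-type replicate 2 or 3 left out and a count of 1 came with wild-type replicate 1, wild-type replicate 4 or Cox-1 KO replicate 1 left out. The median of the 6 genes, -0.06 as reported, was -0.0041 when Cox-1 KO replicate 1 was left out, -0.11 when Cox-1 KO replicate 2 was, -0.19 when wild-type replicate 1 was and -0.025 when wild-type replicate 3 was, so single arrays set its size. It became 0.0043 without the arrays high in Apoa1 and 0.089 with the smooth muscle covariate, chosen after seeing the data, and the cause was not tested. The 3 probe sets past the threshold among all tested became 10 with 32 added, 11 with median centring, 12 with a floor of 100, 6 with a robust fit, 18 with array weights, 6 without the arrays high in Apoa1, and 2 to 25 with each array left out (25 when wild-type replicate 1 was dropped and 9 when Cox-1 KO replicate 2 or 4 was). Same-numbered arrays of the genotypes deviated together with correlations of -0.25, 0.22, -0.18 and 0.17, beside -0.60 to 0.39 for the pairs with different numbers. The paper states that balanced groups of samples were processed in parallel, without naming them. These few values cannot decide whether same-numbered mice were handled together. With the replicate block 3 of all probe sets tested passed the threshold.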
